A study of Mus musculus with 112 samples.

Results

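Group means of sperm DNA methylation (DNAme) ran in 1 direction after cigarette smoke (CS) exposure at 526 short regions in wild type mice. These are regions whose group means fell or rose in strict order from males sampled at the end of exposure (smoked WT) through recovery groups 1, 2 and 3, by 6 percentage points or more in total. Methylation is the percent of sequenced copies of a cytosine that were methylated. A region was a run of at least 3 CpG cytosines on the autosomes, each at most 100 bp from the next and measured in at least 4 libraries of each of the 4 groups, and it was longer than 50 bp. Of 64577 such regions, 281 fell (0.435%) and 245 rose (0.379%). The balance depends on how cytosines were joined: up to 300 bp apart they gave 390 falling and 1115 rising regions, of which 240 and 191 were shared with these. That distance also changes which regions are built, and the counts are not given as shares of them. It also depends on single smoked WT libraries. Without column 4, 302 regions fell and 164 rose, and without column 5, 257 fell and 328 rose. These regions were chosen by the order and size of the 4 group means, so their change along the 4 groups is described here without a test. The word drift stands here for this order of means only. Among the 24 possible orders, the falling and rising time orders were the 5th and 6th most frequent.

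The samples were 112 reduced representation bisulfite sequencing (RRBS) libraries in 13 groups of sperm and brain from adult male mice. F0 sperm came from C57BL/6J wild type males that were unexposed (control WT, n = 10), exposed to CS (smoked WT, n = 9), or exposed and then kept without smoke for increasing times (recovery 1, n = 9; recovery 2 and recovery 3, n = 10 each), which the series places between 28 and 171 days. It also came from unexposed and CS-exposed Nrf2-/- males (n = 10 and n = 9), which lack the functional Nfe2l2 gene for the transcription factor NRF2. In the next generation, sperm was taken from F1 males whose sires were control WT (n = 6) or smoked WT (n = 7). Brain was taken from F1 males of 4 kinds of sire, wild type or Nrf2-/-, each unexposed or exposed to CS (n = 8 each). No unexposed males of the ages of the later recovery groups were labelled, so the time since smoke and the age of the males cannot be told apart. By the study's methods the sons had CAST/EiJ mothers, so 1 allele in each son carries another strain's sequence, and offspring of Nrf2-/- males are heterozygous for the targeted gene.

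In sperm most CpG-dense gene starts are free of methylation and most other CpGs are highly methylated. Methyl groups are placed in the fetal male germ line and copied by maintenance enzymes through the repeated divisions of spermatogonial stem cells, from which a new generation of sperm forms in each spermatogenic cycle. NRF2 drives the genes of the antioxidant and detoxification response. RRBS reads only fragments near restriction sites, here of MspI (which cuts at CCGG) and TaqI (which cuts at TCGA) in separate digests that were then pooled.

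The F0 sperm libraries had low methylation where sperm is known to lack it. Gene starts that are methylated in body cells but not in germ cells, such as those of Dazl, Ddx4 and Sycp1 (8 of 10 listed starts measured), had a median library mean of 1.84% to 2.44% in the F0 sperm groups and of 71.9% to 76.6% in brain. Maternally methylated imprinted starts, such as that of Peg3, had medians of 0.603% to 1.05% in F0 sperm and 21.6% to 29% in brain, with single libraries of control WT and recovery 2 at 8.99% and 8.23%, where Mest or Kcnq1ot1 was high. F1 sperm of control and smoked WT sires had medians of 4.14% and 4.25% at the germline gene starts, with a highest library of 13% and 7.78% and with 4 of 8 starts below 5%, and of 1.09% (highest 8.33%) and 1.53% at the imprinted starts. The windows around the starts of the paternally methylated genes H19, Rasgrf1 and Meg3 were low in sperm too (medians of 0.42% to 1.68% in F0 groups) and do not reach their methylated control elements. Facility numbers in the columns of the wild type F0 libraries cycle through the 5 wild type groups, so they do not follow recovery time, and 9 such runs of numbers hold both smoked WT and recovery 3. Nrf2-/- F0 libraries carry a separate range of numbers (1 to 20, against 21 to 70 for wild type), so genotype and number range cannot be told apart. A library of the F1 brain control WT sire group has a wild type title but an Nrf2-/- strain label, and it was kept with its title. Positions with a value per library, which stand in for depth, had group medians of 1305899 in smoked WT, 1218257 in recovery 1, 1331418 in recovery 2 and 1133897 in recovery 3.

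The falling regions with the largest change for their spread, and another with a large change in points, are shown with their sequence. Each is written 5′ to 3′ on the forward strand of GRCm38 with 15 bases on each side of the first and last measured cytosine, and the CpGs with a measured cytosine are in capitals. The Adamts9 region (chr6:93274273-93274370) lay 331 kb from the nearest gene start. The Ephb1 region (chr9:102274090-102274233) lay in an intron. The Ddit4 region (chr10:59919725-59919917) and the Gm13115 region (chr4:153717229-153717523) were intergenic, and the Enox1 region (chr14:77580496-77580603) was intronic.
Adamts9: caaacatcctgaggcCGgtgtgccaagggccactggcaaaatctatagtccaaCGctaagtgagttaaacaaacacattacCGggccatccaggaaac
Ephb1: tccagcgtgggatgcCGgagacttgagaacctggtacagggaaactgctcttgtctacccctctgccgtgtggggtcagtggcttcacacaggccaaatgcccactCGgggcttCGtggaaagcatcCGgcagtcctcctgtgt
Ddit4: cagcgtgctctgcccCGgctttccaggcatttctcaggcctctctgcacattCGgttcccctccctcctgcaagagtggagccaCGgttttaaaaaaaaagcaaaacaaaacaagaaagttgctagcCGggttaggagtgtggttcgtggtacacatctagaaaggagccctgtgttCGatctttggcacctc
Gm13115: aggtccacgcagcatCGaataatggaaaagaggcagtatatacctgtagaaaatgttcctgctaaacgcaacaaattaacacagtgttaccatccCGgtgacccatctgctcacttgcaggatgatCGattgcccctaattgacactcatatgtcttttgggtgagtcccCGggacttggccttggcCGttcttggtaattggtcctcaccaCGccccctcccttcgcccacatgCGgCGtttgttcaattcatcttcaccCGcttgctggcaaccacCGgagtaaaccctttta
Enox1: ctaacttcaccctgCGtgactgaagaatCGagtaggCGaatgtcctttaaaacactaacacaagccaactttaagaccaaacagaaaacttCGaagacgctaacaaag

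A pair of rising regions with a large change for their spread are set beside them. The Sall1 region (chr8:89371440-89371638) and the Gm43156 region (chr5:147761461-147761599) were intergenic, at 327 kb and 16 kb from the named gene's start.
Sall1: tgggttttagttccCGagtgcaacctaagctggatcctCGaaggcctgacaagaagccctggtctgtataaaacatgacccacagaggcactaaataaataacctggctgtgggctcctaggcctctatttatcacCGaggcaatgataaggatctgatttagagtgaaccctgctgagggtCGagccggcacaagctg
Gm43156: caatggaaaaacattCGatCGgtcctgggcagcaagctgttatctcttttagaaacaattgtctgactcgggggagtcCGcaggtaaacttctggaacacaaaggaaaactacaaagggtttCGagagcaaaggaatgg

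A falling region that also differed between genotypes completes the set. The Gm13660 region (chr2:75468971-75469133) lay 206 kb from Nfe2l2, the gene of NRF2.
Gm13660: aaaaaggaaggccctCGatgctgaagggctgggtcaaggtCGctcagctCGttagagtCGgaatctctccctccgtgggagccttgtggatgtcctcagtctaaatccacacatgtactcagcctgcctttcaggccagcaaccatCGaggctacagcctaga

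Falling and rising regions differed in their starting level. Median methylation of the falling regions was 44.9% in smoked WT, 41.1% in recovery 1, 38.4% in recovery 2 and 33.9% in recovery 3, and that of the rising regions was 77.0%, 81.6%, 84% and 87.4%. Intermediate regions were common among them: 152 of 281 falling and 86 of 245 rising regions had a smoked WT mean of 25% to 75%, against 6.69% of all regions. Among regions with a smoked WT mean of 25% to 50%, 4.16% fell and 1.65% rose, while at 75% to 90% the shares were 1.11% and 2.79%. Regions below 10% rarely moved (2 falling and 15 rising of 33050). Part of this contrast is fixed by the rule and the bounds of the percent scale. A region that starts below the threshold for total change can hardly fall by that much. One that starts close to full methylation can hardly rise by it. The smoked WT means were also used by the rule, so these shares by starting level are descriptions.

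Most of the drift was small and its steps were uneven. The median total change was -9.51 points in falling and 7.49 points in rising regions, and 123 falling and 46 rising regions changed by 10 points or more. Falls of 20 points or more occurred in 13 regions and such rises in 2. Median steps between successive groups were -2.75, -2.50 and -3.83 points for falling and 2.78, 1.60 and 2.84 points for rising regions. The largest step was the last in 123 of the 281 falling regions, and the first in 110 of the 245 rising regions. Steps that each made up at least 20% of the total were found in 63 falling and 56 rising regions.

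The spread between libraries was as large as the change in many regions. Pooled within-group SD had a median of 9.17 points in falling and 7.87 points in rising regions, against 1.97 points over all regions and 6.63 points over the 8570 regions with a smoked WT mean of 20% to 90%. The total change was below 1 pooled SD in 104 falling and 102 rising regions and reached 2 pooled SDs in 21 and 4. Libraries of smoked WT and recovery 3 did not overlap at all in 8 falling regions and in 0 rising regions, and at 35 of all 64577 regions (0.0542%). Single CpGs followed less strictly: 89.9% of the 1323 cytosines in falling regions were lower in recovery 3 than in smoked WT, but 26.5% were in strict order over the 4 groups, and for the 1160 cytosines of rising regions the shares were 90.4% higher and 28.3%.

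The position of the unexposed males differed between falling and rising regions. The control WT mean lay nearer to smoked WT than to recovery 3 in 225 of 281 falling regions, and it was above smoked WT in 84, between smoked WT and recovery 3 in 185 and below recovery 3 in 12. In rising regions control WT lay nearer to smoked WT in 118 and nearer to recovery 3 in 127 of 245. On a scale from smoked WT (0) to recovery 3 (1), the median position of control WT was 0.172 for falling and 0.515 for rising regions. Median methylation in control WT was 43.5% at falling and 82.2% at rising regions. Smoked WT and recovery 3 define both ends of this scale and were used by the rule, so these positions are descriptions. Of the 245 rising regions 114 were lost without smoked WT column 4, and the positions were not computed without that library.

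**Figure D1:**
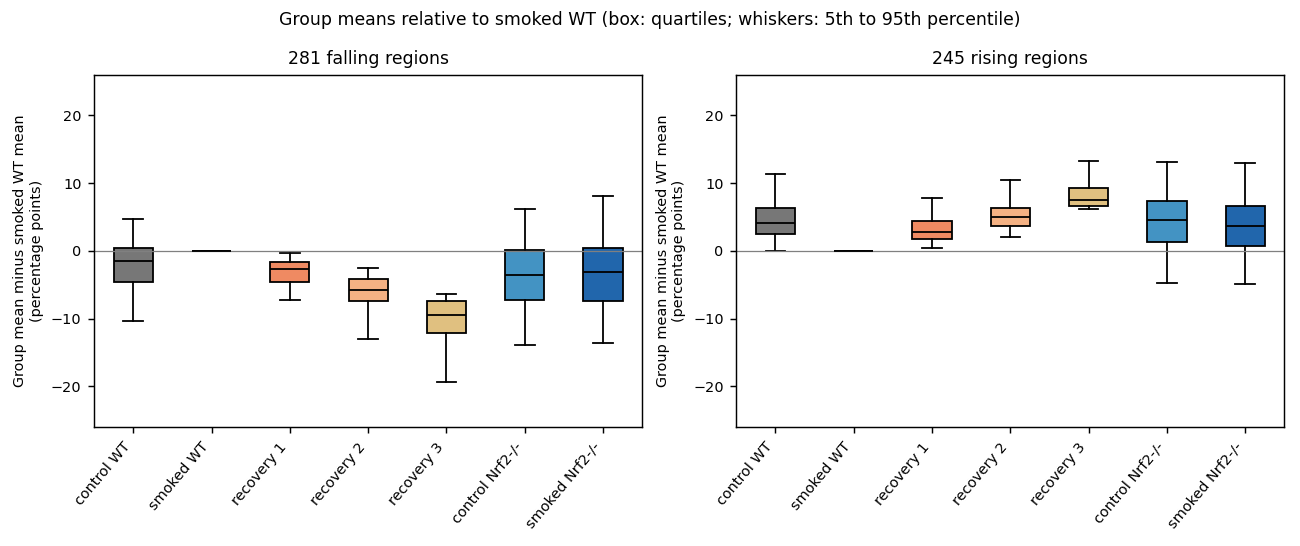
Group mean minus smoked WT mean in percentage points (y axis) for 281 falling regions (left) and 245 rising regions (right) in the 7 F0 sperm groups (x axis). Boxes give quartiles over regions and whiskers the 5th to 95th percentile, the recovery boxes are ordered by the rule, and control WT sits near smoked WT on the left and between smoked WT and recovery 3 on the right.

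Counts of regions in every order of the same 4 group means put the time orders among their like. Regions whose 4 means spanned 6 points or more fell into 24 possible orders, with 80 to 342 regions each. The falling time order held 281 and was the 5th most frequent, and the rising time order held 245 and was the 6th. Counting regions whose span reached 2 pooled SDs gave another picture: the falling time order held 21, the most of any order, followed by 13 for the order smoked WT, recovery 2, recovery 1, recovery 3, and the rising time order held 4. The remaining orders with recovery 3 lowest held 8, 8, 4 and 2 regions that reached 2 pooled SDs. Orders with recovery 3 in another place held 0 to 5, so high counts were not limited to the time order. The falling time order also held the largest change for its spread of any order, 4.95 pooled SDs. These counts use the same group means as the rule and are descriptions.

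Restriction sites were unevenly spread over falling and rising regions. A TaqI site (TCGA) was found in 84 of 281 falling regions (29.9%) and in 165 of 245 rising regions (67.3%), compared with 52.5% of all regions and 67.9% of those with a smoked WT mean of 20% to 90%. The MspI site (CCGG) was found in 83.3% of falling and 53.9% of rising regions, against 67.7% of all and 48.5% of those with a smoked WT mean of 20% to 90%. Both sites read the same on either strand and cannot overlap at the same CpG, and they were searched over each region and the bases beside it. Of regions with a smoked WT mean of 25% to 75%, 6.09% of those without a TaqI site fell and 1.57% rose, while among those with a TaqI site the shares were 1.92% and 2.25%.

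The same contrast ran through other orders of the group means. All 6 orders with recovery 3 lowest had a TaqI site in 16.1% to 29.9% of their regions, and the 6 orders with recovery 3 highest in 45.9% to 79.2%. The balance of the digests varied within every group: positions with a value at TCGA per 100 at CCGG had medians of 138 in control WT (97.2 to 205), 152 in smoked WT (94.6 to 219), 128 in recovery 1 (117 to 170), 117 in recovery 2 (96.8 to 144) and 138 in recovery 3 (105 to 161). These ranges overlapped between all 5 groups, and the part of the digests in the drift was not tested. The smoked WT library at 219, column 4, also had the lowest mean over all positions of its group, 25.4%, against 31.5% to 40.2% in the others. Without it, a comparison added after seeing the data, 164 regions rose, 45.7% of them with a TaqI site, and 302 fell, 32.1% of them with one. Of the 245 rising regions 131 were kept, and 97 of the 114 lost held a TaqI site (85.1%). Leaving out any other single library kept 176 or more rising regions, with a TaqI site in 61.9% to 76.1% of those that rose. The TaqI shares of the other orders were not computed without it. Among the 21 falling regions with a change of at least 2 pooled SDs, 12 held a TaqI site, as did all 4 such rising regions.

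**Figure D2:**
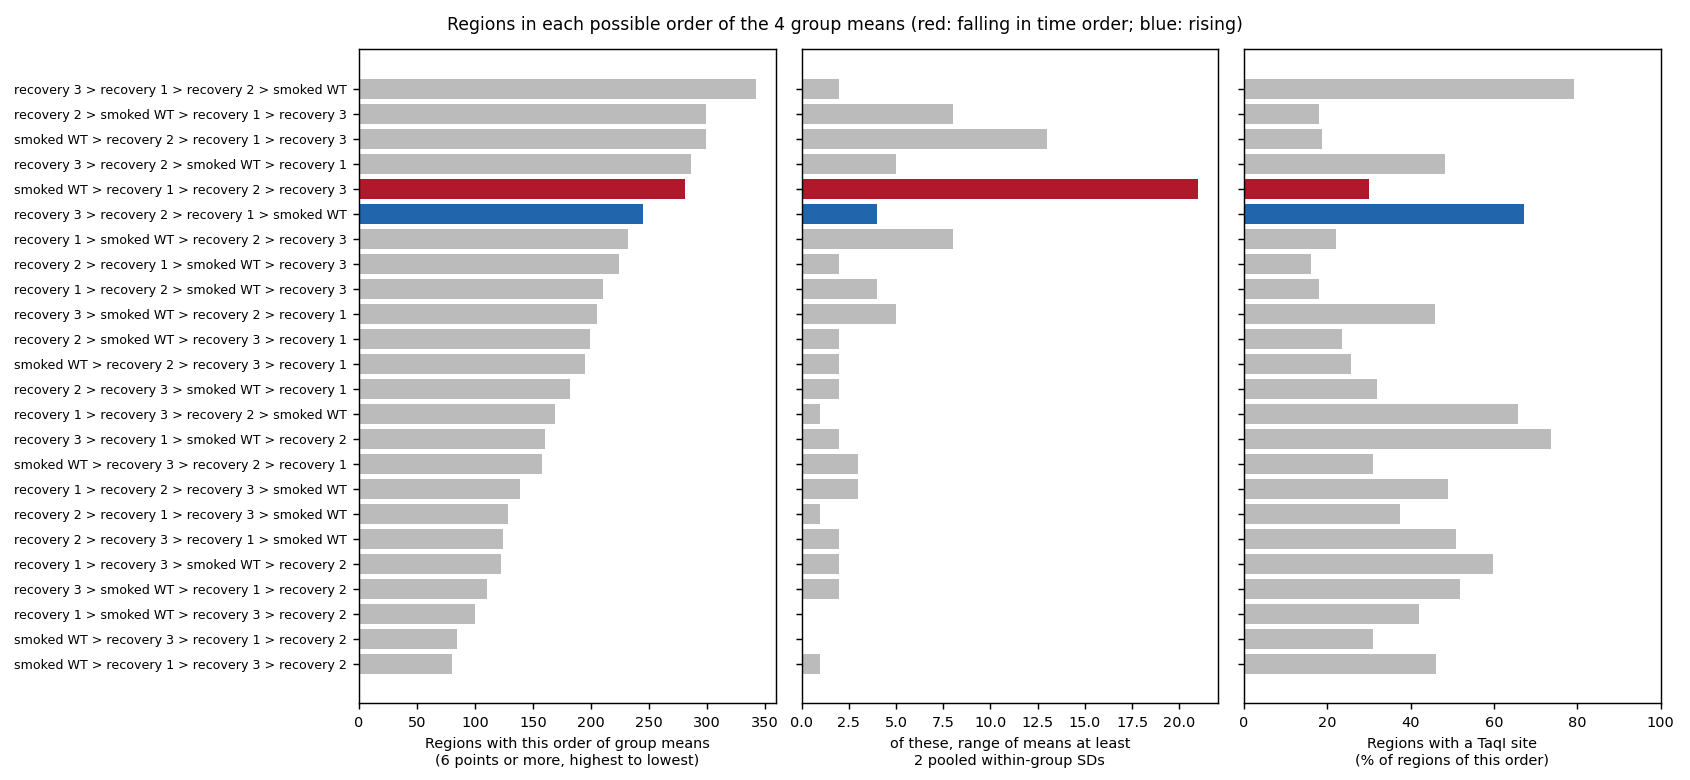
Each bar row is 1 of the 24 orders of the 4 group means, highest to lowest, with the falling time order in red and the rising time order in blue. The x axes give the number of regions spanning 6 points or more, the number of these spanning at least 2 pooled within-group SDs, and the percent of the order's regions with a TaqI site. The red bar is 5th in the first panel with 281 regions and longest in the second with 21, and in the third panel it stands at 29.9% against 67.3% for the blue bar.

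Members lay outside gene starts more often than regions as a whole, but not more often than regions with a smoked WT mean of 20% to 90%. That set is not matched in level: its median smoked WT mean was 68.8%, against 44.9% in falling and 77.0% in rising regions. A start of an annotated gene was within 1 kb of 44 falling and 27 rising regions (15.7% and 11%), against 40.3% of all regions and 10.7% of those with a smoked WT mean of 20% to 90%. Intergenic sequence held 139 falling and 112 rising regions and introns held 91 and 86. Coding exons held 28 and 34, UTRs 11 and 5, and exons of noncoding genes 12 and 8. Median GC content was 54.1% in falling regions, 51.1% in rising regions and 56.5% in all. Per chromosome the share of regions that were members ranged from 0.465% on chromosome 16 to 1.26% on chromosome 3.

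The nearest neighbours of the members were set beside those of all regions. Of the 111 falling regions with another region within 5 kb, that neighbour changed in the same direction in 50 (45%), and of the 77 such rising regions in 45 (58.4%), against 52.6% over all regions. The neighbour was itself a member of the same direction in 0 cases. As 0.435% of all regions fell and 0.379% rose, few could occur among 111 and 77 neighbours, and nothing is read from this. The median change of the neighbour from smoked WT to recovery 3 was 0.0216 points beside falling and 0.137 points beside rising regions, against 0.0957 points over all regions.

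Members near genes of 5 lists were counted. Inside or up to 10 kb from the start of 139 listed homeobox and other developmental transcription factor genes, 1 of 1035 regions was a member (0.0966%, against 0.815% of all regions): it lay 432 bp from the start of Foxa2, a forkhead factor of endoderm, and went from 8.05% to 1.97%. NRF2 and AhR targets had 1 member of 137 regions (0.73%), a rise from 72.8% to 80.8% in an intron of Abcc4, which encodes a drug efflux pump. Imprinted genes had 1 of 213 (0.469%), a fall from 65.1% to 58.1% at 7843 bp from Ascl2, and germline and meiosis genes 1 of 135 (0.741%), a fall from 87.6% to 81.4% at 702 bp from Nanos3, an RNA-binding factor of germ cells. Neuronal receptor, channel and adhesion genes had 4 of 579 (0.691%), in introns of Cdh4, Tmem132d and Grik4 (falling) and of Cacna1e (rising). No background of like methylation level was counted for these lists, so nothing is read from their shares.

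The clearest falling region lay between genes, 331 kb from the start of Adamts9, which encodes a secreted protease of the extracellular matrix. Its methylation was 48.5% to 73.6% (median 67.1%) in 9 smoked WT libraries and 28.1% to 43.6% (median 33.1%) in 10 recovery 3 libraries, and these ranges did not overlap. Means stepped down from 64.5% ± 7.49 (SD, n = 9) in smoked WT to 53.8% ± 7.06 (n = 9), 40.5% ± 5.43 (n = 10) and 34.1% ± 4.43 (n = 10). Control WT, at 65.9% ± 4.66 (n = 10), stood with smoked WT, so the drift led away from the unexposed level. All 4 cytosines were in strict order, with changes of -23.8 to -39.3 points. The nearest other region, 4.46 kb away, changed by 0.141 points.

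The Ephb1 region, in an intron of a receptor for ephrin ligands, changed by over 30 points. Smoked WT libraries held 57% to 93.8% (median 68.1%), recovery 1 39.7% to 74.3%, recovery 2 20.6% to 61.3% and recovery 3 18.5% to 54.2% (median 38.9%). Smoked WT and recovery 3 did not overlap, while each group overlapped its neighbours. Its total change of -31.4 points was 2.78 pooled SDs, all 4 cytosines were in strict order, and control WT stood between smoked WT and recovery 1 at 59.8% ± 9.81 (n = 10).

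Ddit4 encodes a stress-induced inhibitor of mTORC1 signalling, and a region 31.9 kb from its start was low and became lower. It held 14.7% to 30.6% in smoked WT (median 27.3%) and 1.54% to 18% in recovery 3 (median 6.45%), with an overlap between the lowest smoked WT and the highest recovery 3 libraries. Means were 25.6% ± 5.69 (n = 9), 15.1% ± 3.93 (n = 7), 12.1% ± 5.50 (n = 10) and 7.21% ± 5.26 (n = 10), against 18.1% ± 8.38 (n = 10) in control WT. Control WT was wider than any of these groups, with libraries from 7.46% to 31.4%.

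The intergenic region nearest Gm13115, 190 kb away, held 14 measured cytosines, the most of the regions named here. It went from 25.3% ± 2.59 (n = 9) in smoked WT to 19.8% ± 4.17 (n = 9), 17.7% ± 4.06 (n = 10) and 14.4% ± 3.28 (n = 10), with control WT at 25.1% ± 4.95 (n = 10). Smoked WT libraries (22.2% to 29.9%) lay above all recovery 3 libraries (10.1% to 22%). The fall was not shared by every cytosine: changes ranged from -28.8 to 6.67 points, and 7 of 14 were in strict order.

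Enox1, which encodes a cell surface NADH oxidase, had a falling region in an intron at a high level. Libraries held 79.6% to 91.4% in smoked WT and 68.8% to 79.2% in recovery 3, with no overlap, and 78.9% to 87.3% in control WT. Most of its change of -10.04 points came in the last step, from 79.96% ± 3.50 (n = 10) to 73.9% ± 3.73 (n = 10).

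Another 5 regions completed the 10 falling regions with the largest change for their spread. Near Pds5a, a regulator of the cohesin complex, a repeat-masked stretch went from 54.4% ± 5.27 (n = 9) to 36.7% ± 7.61 (n = 10), with control WT at 48.3% ± 5.14 (n = 10). An intron of Cdh4 (R-cadherin) went from 72.2% ± 4.82 (n = 9) to 61.9% ± 2.89 (n = 10), and an intron of Prickle2, a planar cell polarity gene, from 37.2% ± 6.64 (n = 9) to 17.6% ± 6.03 (n = 9). In an intron of Adgrl2, an adhesion receptor of the latrophilin family, the change was -6.83 points, and nearly all of it had occurred by recovery 2 (44.3%, 42.4%, 37.9% and 37.5%). The Gm13660 region, described below with the genotypes, changed by -7.82 points.

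Larger falls in points near Gm42679 and Rprml rested on wider spreads. A region 30.3 kb from Gm42679 changed by -34.5 points, from 89.2% ± 10.6 (n = 6) to 54.8% ± 29 (n = 4). The region 17.4 kb from Rprml changed by -33.1 points, from 77.3% ± 10.7 (n = 8) to 44.2% ± 22 (n = 9), with recovery 1 and recovery 2 alike at 61.9% and 61.7%. Strict order was kept there in 29 of 38 rounds that each left out 1 library of the 4 groups, and in 26 of 38 near Gm42679, compared with 38 of 38 for 8 of the 10 falling regions above.

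**Figure D3:**
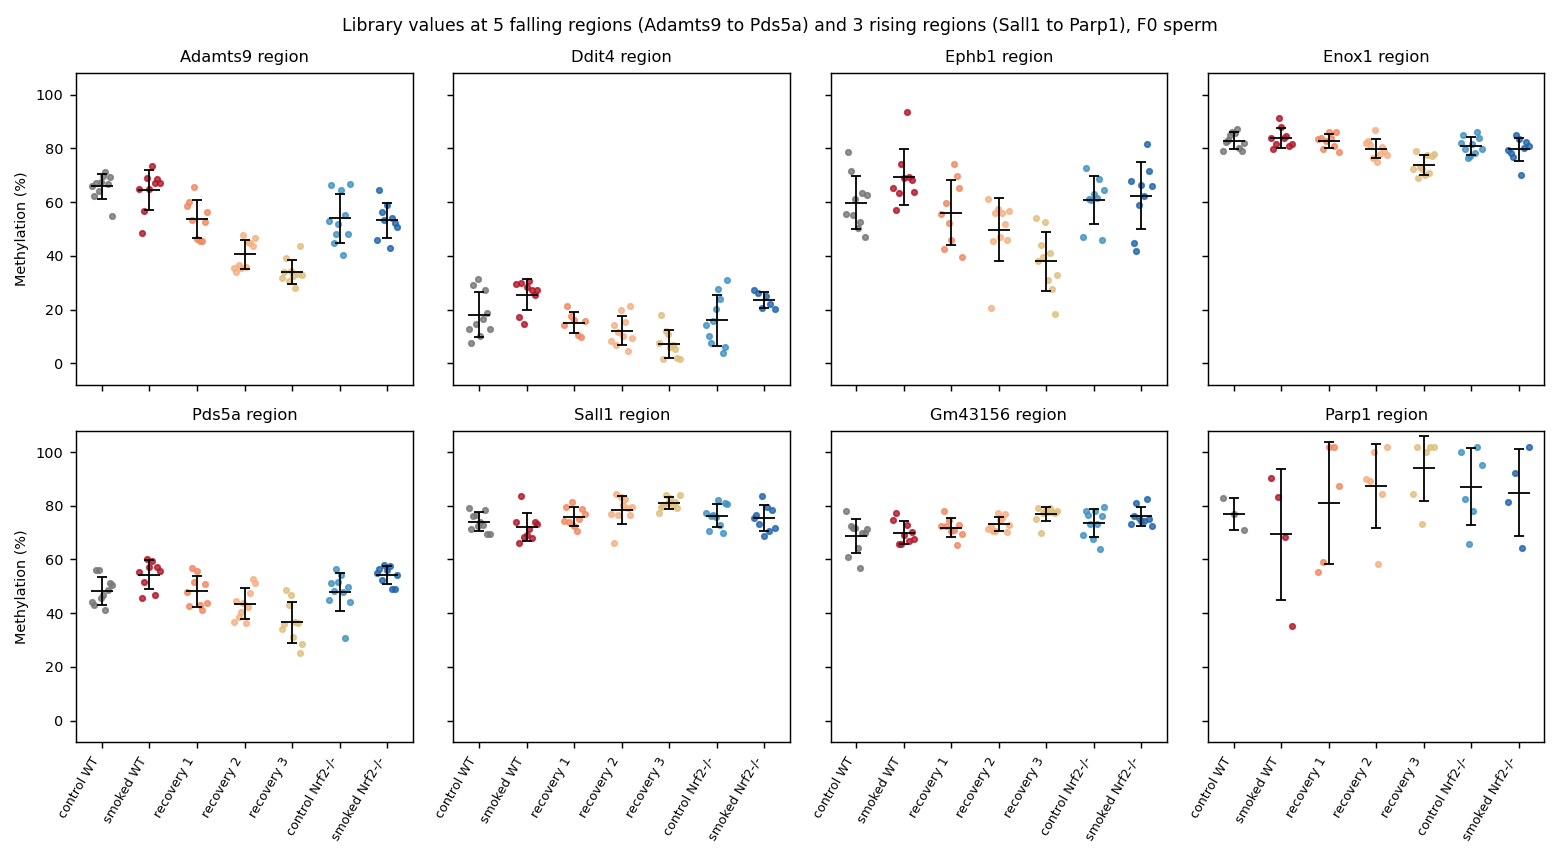
Methylation in percent (y axis) of every library (points) with the group mean and SD (black bars) in the 7 F0 sperm groups, for 5 falling regions (Adamts9, Ddit4, Ephb1, Enox1, Pds5a) and 3 rising regions (Sall1, Gm43156, Parp1). In the Adamts9 panel the smoked WT points lie at 48.5% to 73.6% and the recovery 3 points at 28.1% to 43.6%, whereas in the Parp1 panel the points of all groups overlap. Values adjusted for missing cytosines can pass 0 or 100.

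Rising regions had weaker separation. A region 327 kb from Sall1, a zinc finger transcription factor of kidney and limb development, stepped up from a level near that of control WT. Means were 72.0% ± 5.23 (n = 9), 75.9% ± 3.56 (n = 9), 78.5% ± 5.18 (n = 10) and 80.9% ± 2.18 (n = 10), against 74.0% ± 3.50 (n = 10) in control WT. Libraries of smoked WT (66.2% to 83.7%) and of recovery 3 (77.3% to 84.1%) overlapped because of 1 smoked WT library at 83.7%, the next being 74.1%.

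In the Gm43156 region, 35.5 kb from Flt1 (a receptor for VEGF), the change was 6.92 points. Libraries held 65.6% to 77.4% in smoked WT (median 69.2%, n = 9) and 70.02% to 79.3% in recovery 3 (median 77.6%, n = 10), with overlap, and 56.7% to 78.1% in control WT (n = 10). All 4 cytosines rose by similar amounts, 5.79 to 7.98 points, and 3 of 4 were in strict order.

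Another 7 rising regions had smaller changes for their spread. Near 4930432O09Rik, 76.6 kb from the Wnt inhibitor gene Wif1, the mean went from 65.7% to 74.7%. At 23.8 kb from Cyp3a16, a cytochrome P450 gene, it went from 60.4% to 69%, and at 2.20 kb from Nck2, an adaptor protein gene, from 91.4% to 97.9%. The rise in an intron of Mdm2, the ubiquitin ligase of p53, was from 16.4% to 22.7% at 0.374 kb from an annotated start, which made it the lowest of these. The others lay in introns of 4933431K23Rik (87.0% to 94.3%), B230118H07Rik (61.6% to 82.5%) and Gm10717 (36.7% to 45.3%). The Gm10717 region is 93.5% repeat-masked and the 4933431K23Rik region wholly so, and how uniquely reads mapped there, or at the masked Pds5a region, was not tested.

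The largest rises in points were not separated from the spread. In a region at a coding exon of Parp1, the enzyme that marks DNA breaks with poly(ADP-ribose), the change was 24.6 points, from 69.3% ± 24.5 (n = 4) to 93.9% ± 12.2 (n = 6). In an intron of Armc2, a gene needed for the sperm flagellum, it was 19.4 points with a pooled SD of 18.2 points. B230118H07Rik, named above, rose by 20.9 points, with 4 control WT libraries at 73.6% to 89.3%.

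At the threshold, the members just inside changed by -6.01 points (in an intron of Galnt9) and 6.00 points (7.26 kb from Osbp). Regions just outside changed by -5.998 points (at a noncoding exon near Cldn14) and 5.999 points (70.8 kb from Slc7a11).

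**Figure D4:**
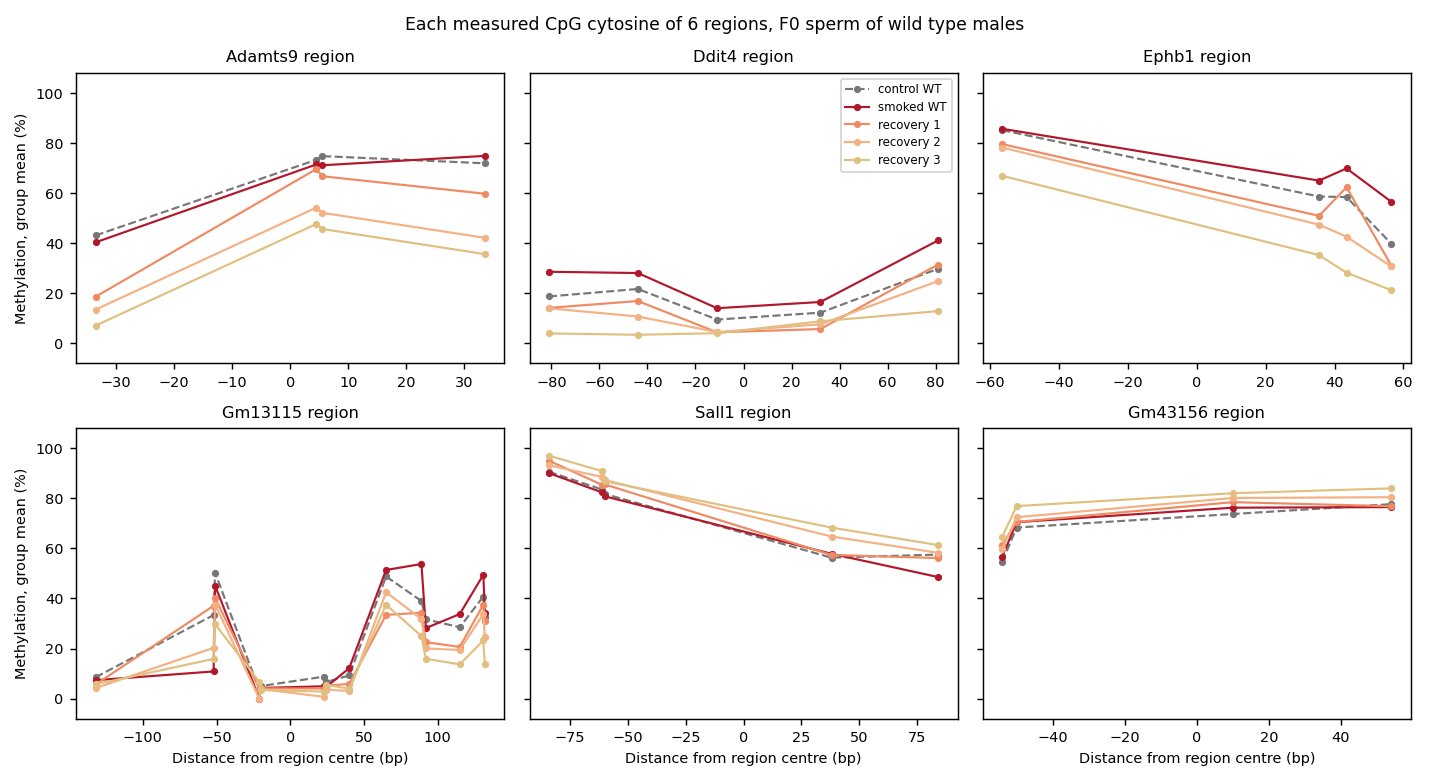
Mean methylation in percent (y axis) of each measured cytosine against its distance from the region centre in bp (x axis) in 5 wild type F0 sperm groups, for 4 falling regions (Adamts9, Ddit4, Ephb1, Gm13115) and 2 rising regions (Sall1, Gm43156). Lines join the cytosines of 1 group, and control WT is dashed. All 4 cytosines of the Adamts9 and Ephb1 regions step down group by group, and the 4 cytosines of Gm43156 are higher in recovery 3 than in smoked WT by 5.79 to 7.98 points.

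Nrf2-/- sperm was then compared with control WT sperm at the same regions. The rule did not use the control WT and Nrf2-/- libraries, but the spread in this fit came from all 7 F0 groups, 4 of which it did use. In F0 sperm, 491 of the 526 regions could be tested among 62979, by limma with Benjamini-Hochberg adjustment over all regions. Control Nrf2-/- minus control WT called 7 of 491 members (1.43%), against 0.408% of all regions, and smoked Nrf2-/- minus control WT called 10 (2.04%), against 0.368%. When only the 2 groups compared were fitted, the counts were 4 and 6, and on logit values the second was 6. Both contrasts share the control WT libraries. The contrast of smoked Nrf2-/- with control WT also differs in CS exposure, so genotype and exposure cannot be told apart in it. The members called were 11 in all and 6 in both contrasts: 9 falling and 2 rising. Members had a wider spread and more intermediate levels than regions as a whole, so their share of calls is not set against a like background here. Directions were mixed: of the falling members called, 5 were lower and 1 higher in control Nrf2-/-, and 4 were lower and 4 higher in smoked Nrf2-/-.

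Over all tested members the differences from control WT went both ways. At an unadjusted p under 0.05 in limma, control Nrf2-/- differed from control WT in 74 of 491 members (15.1%, against 7.80% of all regions) and smoked Nrf2-/- in 76 (15.5%, against 7.84%). The median difference of control Nrf2-/- from control WT was -1.28 points for falling, 0.264 points for rising and -0.0277 points for all regions, and 56.5% of falling regions against 51.7% of all were lower in control Nrf2-/-. For smoked Nrf2-/- the medians were -1.37, -0.267 and -0.115 points. Smoked minus control Nrf2-/- called 0 of 491 members in limma (27 at an unadjusted p under 0.05, 5.50%, against 5.87% of all regions), and 0.00635% of all regions.

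Higher methylation in smoked Nrf2-/- than in control WT sperm was seen at falling regions near Gm13115, Gm34354 and Tmem230. Control Nrf2-/- minus control WT was not called there. Its differences were 7.75, 8.67 and 3.92 points (limma, adjusted p = 0.0672, 0.063 and 0.73). At Gm13115, smoked Nrf2-/- libraries held 31.5% to 43.8% (median 35.3%, n = 8) and control WT 15.5% to 32.8% (median 25.3%, n = 10), with a difference of 11.2 ± 2.16 points (SE; limma, adjusted p = 0.00196). All 10 recovery 3 libraries lay below every smoked Nrf2-/- library. The rule chose this region for a recovery 3 mean below that of smoked WT, so that separation is only a description. At an exon of the noncoding Gm34354 the difference of smoked Nrf2-/- from control WT was 11.3 ± 2.32 points (limma, adjusted p = 0.0052). It was 10.5 ± 2.42 points at 13.5 kb from Tmem230 (limma, adjusted p = 0.0213), where the call was lost without control WT column 10 (adjusted p = 0.0641).

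Lower methylation in Nrf2-/- sperm, the direction of the drift, was seen at other falling regions. The Adamts9 region had 40.4% to 66.7% in control Nrf2-/- (median 52.5%, n = 10) and 42.9% to 64.5% in smoked Nrf2-/- (median 53.5%, n = 9), against 55% to 71.2% in control WT (median 66.9%, n = 10). The groups overlapped, and the differences were -11.9 ± 2.91 points (limma, adjusted p = 0.034) and -12.6 ± 2.99 points (limma, adjusted p = 0.0298). Neither call held without a single library: the adjusted p was 0.115 without control Nrf2-/- column 7 and 0.0954 without smoked Nrf2-/- column 6. Both Nrf2-/- groups lay near recovery 1 (53.8%) and above recovery 3 (34.1%).

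The Gm13660 region was lower in both contrasts with control WT by a small margin. It held 65.5% to 77.1% in control Nrf2-/- and 63.3% to 72.9% in smoked Nrf2-/-, against 71% to 81.2% in control WT. The differences were -6.12 ± 1.35 points (limma, adjusted p = 0.0103) and -6.69 ± 1.38 points (limma, adjusted p = 0.00556). Both calls were lost when only the 2 groups compared were fitted (limma, adjusted p = 0.122 and 0.0797) and on logit values (0.0909 and 0.061). It is the member nearest to the targeted gene. Within 1 Mb of Nfe2l2, a window chosen after the values were seen, 5 of 113 tested regions were called in control Nrf2-/- (4.42%, against 0.408% of all regions), and the part of DNA linked to the targeted allele was not tested.

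In Camkk2, a kinase of calcium signalling, a region in a UTR was 89.0% to 99.4% in control WT and 58.5% to 91.8% in control Nrf2-/-, a difference of -12.1 ± 2.85 points (limma, adjusted p = 0.0234). Recovery 3 was near control Nrf2-/- in mean, though slightly higher and narrower, at 65.1% to 93.2%. The means were 82.1% ± 9.11 (n = 10) and 80.8% ± 9.91 (n = 10). The call was lost without control Nrf2-/- column 8 (adjusted p = 0.0929). An intronic region of Rasgef1b, an exchange factor for Ras-like GTPases, was different by -12.4 ± 2.83 points in control Nrf2-/- (limma, adjusted p = 0.0155) and -13.2 ± 2.91 points in smoked Nrf2-/- (limma, adjusted p = 0.0116), where the call was lost when only the 2 groups compared were fitted (adjusted p = 0.0729). Its own drift was -6.56 points with a pooled SD of 6.57 points. A remote intergenic region near Gm6634 differed by -10.6 ± 2.56 points in control Nrf2-/- (limma, adjusted p = 0.031), a call that was lost without control WT column 6 (adjusted p = 0.0732).

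Of the rising regions, the one near Gm41318 was lower in both Nrf2-/- groups, with differences of -10.3 ± 2.08 points (limma, adjusted p = 0.00335) and -9.93 ± 2.13 points (limma, adjusted p = 0.00886). The second call was lost when only the 2 groups compared were fitted (limma, adjusted p = 0.104). Control WT there (47.6% to 63.2%) was near recovery 3, and Nrf2-/- libraries lay on the side of smoked WT. An intron of Rhoj, a small GTPase of blood vessel cells, was 13.9 ± 3.02 points higher in smoked Nrf2-/- (limma, adjusted p = 0.00997). In control Nrf2-/- the difference from control WT was 10.97 points and was not called (limma, adjusted p = 0.081).

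**Figure D5:**
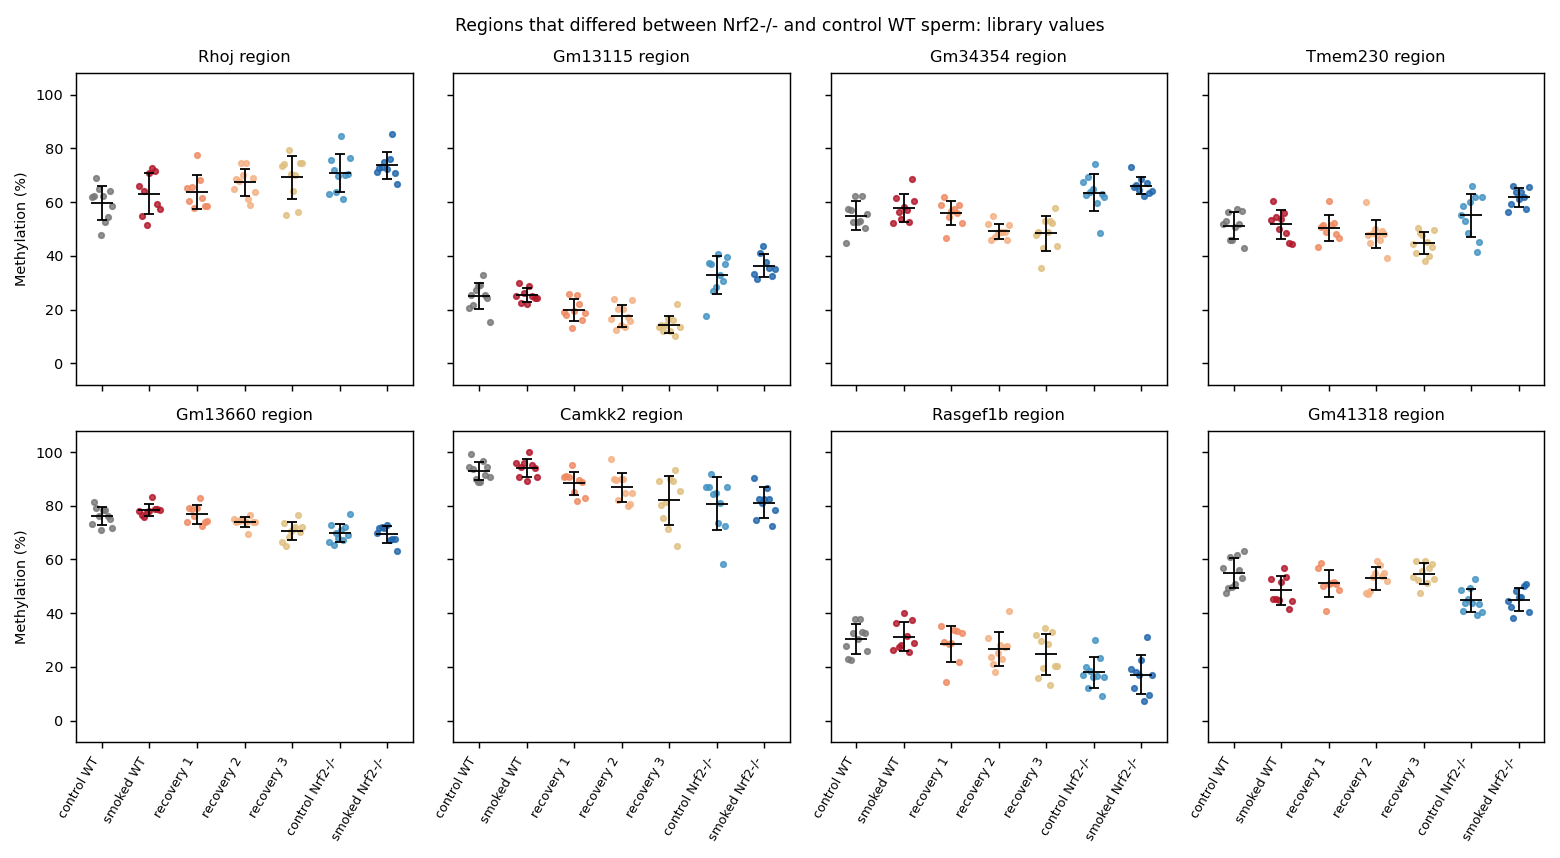
Methylation in percent (y axis) of every library (points) with the group mean and SD (black bars) in the 7 F0 sperm groups at 8 regions that differed between Nrf2-/- and control WT sperm. The upper row (Rhoj, Gm13115, Gm34354, Tmem230) is higher in smoked Nrf2-/- and was called there alone. The lower row (Gm13660, Camkk2, Rasgef1b, Gm41318) is lower in both Nrf2-/- groups. Differences from control WT are 6.12 to 13.9 points in the contrasts given.

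Sons were compared last, to ask whether the same regions differ by paternal exposure. In F1 sperm 181 of the 526 regions could be tested among 35026 and in F1 brain 457 among 61005. Smoked minus control WT sires called 0 of 181 members in F1 sperm in limma (18 at an unadjusted p under 0.05, 9.94%, against 5.18% of all regions, of which 0% were called). With 6 and 7 libraries F1 sperm was the smallest comparison, and 0 calls do not show that these regions did not differ. In F1 brain it called 0 of 457 (23 at an unadjusted p under 0.05, 5.03%, against 3.92%, with 0.00164% of all regions called). The median difference in F1 sperm was 0.483 points for 94 falling and 2.69 points for 87 rising regions, against 0.175 points over all. The labels name no sons of recovery males.

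The falling regions measured in F1 brain had medians of 66.5% in sons of control WT sires and 68.6% in sons of smoked WT sires. The Adamts9 region ranged widely in brain, from 20.4% to 43.9% in sons of control WT sires and from 11% to 68% in sons of smoked WT sires (n = 8 each), while in F1 sperm it held 87.0% to 97.6% (n = 6) and 90.2% to 96.9% (n = 7). The 11% was in column 8 of smoked WT sires, whose mean over all positions was 30.1%, against 37.5% to 41.8% in the group's other libraries. The lowest library of that group had 6.64% at maternally methylated imprinted starts and 57.9% at germline gene starts, against group medians of 29% and 76.6%, and the part of these libraries was not tested. Control Nrf2-/- minus control WT sires called 0 of 457 members in brain in limma (29 at an unadjusted p under 0.05, 6.35%, against 9.88% of all regions, with 0.0229% of all regions called). Smoked minus control Nrf2-/- sires also called 0 (57 at an unadjusted p under 0.05, 12.5%, against 7.82%, with 0.00328% of all regions called). In this last contrast 195 of 248 falling regions were lower in sons of smoked sires (78.6%), as were 69.4% of rising and 62.6% of all regions. Mean methylation over all positions was 27.5% to 39.1% in the smoked and 36.8% to 39.95% in the control Nrf2-/- sire libraries, and maternally methylated imprinted starts had medians of 21.6% (lowest 11.8%) and 28.5% (lowest 22.5%). The part of these libraries in the shift was not tested.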

How the data were processed

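The authors deposited, for each group, a table of the percent of methylated reads per CpG cytosine (1 column per library), made from RRBS reads aligned to mm10 (GRCm38) with Bismark (version not given in the sources used here). Read counts per cytosine were not used here, so the depth behind a percent is unknown and no interval for it is given. Columns could not be tied to single samples, so libraries are called by group and column. Regions were built as described, and F0 sperm of the 4 groups gave 1087257 cytosines with enough values. The value of a library in a region was the region level plus the mean deviation of its measured cytosines from their reference levels, for at least 50% of cytosines, so a few values pass 0 or 100. Nrf2-/- and F1 groups were compared with limma 3.58.1 in R 4.3.3 (all groups of a tissue in a fit, 2-sided, Benjamini-Hochberg over all regions, 0.05), which was tested on simulated data first. Regions are named after the gene they lie in or the nearest start. Those named are the 10 falling and 10 rising with the largest change over pooled SD among regions with 6 or more libraries per group, the 3 largest changes each way, members called in a contrast (at most 8 per contrast by adjusted p), and those beside the threshold. Some regions that meet this rule are not reported here. The members and gene lists were chosen with earlier results of these data known. Sperm samples were labelled as single animals. Alternatives were other joining distances, value minimums and thresholds, merged strands, CpG means, array weights, logit values, fits of 2 groups and leaving out each library.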

Additional observations from a re-analysis of the deposited data

Results flagged for a closer look

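Single libraries stood apart from their group in 16 of the 236 groups of 4 to 10 libraries examined at the named regions, by the gap to the nearest library against the range of the group (Dixon's test at 95%), where chance gives about 5%. In the Ephb1 region the highest smoked WT library was at 93.8% (next 74.2%) and the lowest recovery 2 library at 20.6% (next 45.5%). In the Gm13660 region the highest smoked WT library was at 83.3% (next 78.9%) and the lowest recovery 2 library at 69.4% (next 73.8%). The lowest control Nrf2-/- library of the Pds5a region was at 30.7% (next 44.3%), the lowest recovery 2 library of the Cdh4 region at 56.1% (next 63.1%), and the lowest recovery 1 library of the Gm42679 region at 27% (next 67.6%). In the Tmem230 region the highest recovery 2 library was at 60% (next 50.1%).

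Among rising regions, the Sall1 region had a highest smoked WT library at 83.7% (next 74.1%) and a lowest recovery 2 library at 66% (next 76.4%). The lowest recovery 1 library of the Mdm2 region was at 12.2% (next 16.8%), the lowest control WT library of the 4933431K23Rik region at 61.2% (next 85%), and the lowest recovery 3 library of the Gm43156 region at 70% (next 75%). The highest recovery 3 library of the 4930432O09Rik region was at 88.5% (next 76.1%), the lowest smoked WT library of the Armc2 region at -3.5% (next 29.8%), and the highest smoked Nrf2-/- library of the Rhoj region at 85.2% (next 76%).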

How the results depend on the processing

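With a threshold of 10 points, 123 falling and 46 rising regions were left. Joining cytosines up to 300 bp apart gave 390 falling and 1115 rising regions, which shared 240 and 191 with those described. Requiring 6 values per group gave 192 and 165, merging strands 284 and 356, and means of CpG means 287 and 252. The joining distance, the number of values and the merging of strands change which regions are built, and these counts are not shares. Leaving out 1 library at a time gave 252 to 328 falling and 164 (without smoked WT column 4, which kept 131 of the 245) to 328 (without smoked WT column 5) rising regions, and 45 falling and 16 rising regions met the rule in all 38 such rounds. The members called in control Nrf2-/- minus control WT numbered 4 when only the 2 groups compared were fitted (5 to 8 leaving out 1 library), and in smoked Nrf2-/- minus control WT 6 in that fit and 6 on logit values (7 to 11 leaving out 1 library). Over all regions the latter contrast called 232, against 118 in the fit of the 2 groups and 153 on logit values, and the former 257, against 172 and 188. Other contrasts called 0 members in every alternative run. Of the 17 differences called, 5 were called in every alternative: Gm13115, Gm34354 and Rhoj in smoked Nrf2-/-, and Gm41318 and Rasgef1b in control Nrf2-/-. None changed sign. No paired analysis was possible because the columns do not carry the replicate numbers of the labels, and the drift of the wild type groups has no test. By the study's methods, smoked WT and each recovery group held different males, so equal replicate numbers would not mark the same animal. The limit on pairing concerns replicate numbers only, as runs of facility numbers with both smoked WT and recovery 3 could be compared. The median share of such runs that changed in the region's direction was 85.7% for falling and 77.8% for rising regions, where counted. The choice of members favours that direction, so these shares are descriptions. With runs of 4 consecutive library numbers of the column names as a block, a limma fit added after seeing the data, smoked minus control within a genotype called 0 members in F0 sperm, F1 sperm and both F1 brain contrasts (5.3%, 9.94%, 5.47% and 16% at an unadjusted p under 0.05, against 4.32%, 5.38%, 5.05% and 9.39% of all regions), and 5 regions in all were called in the last, Nrf2-/- sires in brain. The cause of these changes was not tested. Depth per cytosine is unknown, and a region with few libraries per group, such as that of Parp1, limits what its values show.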
